A study of Homo sapiens with 21 samples.

Results

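The effect of METTL4-si under hypoxia was compared between 2 human cancer cell lines, FADU, derived from a head and neck cancer, and BFTC909, derived from a transitional cell cancer of the renal pelvis. For each gene the difference between METTL4-si and Scr-si (a scrambled control) under hypoxia was taken in BFTC909, and the same difference in FADU was subtracted from it. This difference of differences is called the interaction below. It was computed for the genes present in both knockdown tables, 15926 of the 20811 genes in either, and was tested for the 13595 of them that reached 1 in 2 or more libraries of both tables. Each line had 3 groups of 2 RNA-seq libraries: Scr-si cells in normoxia (18% oxygen), Scr-si cells in hypoxia (1% oxygen for 18 hours) and METTL4-si cells in the same hypoxia. The labels speak of siRNA, whereas the study's methods describe stable knockdown by lentiviral short hairpin RNA, and both sources leave the separate origin of the 2 libraries of a group unstated, so the p-values measure only the spread between these libraries. Set beside them were FADU cells of 2 other kinds: METTL4-OE (overexpression) cells with control vector cells, both in normoxia with 2 libraries each, and hypoxic METTL4-DPPW-mut cells, edited in the catalytic motif of METTL4, with 1 library from each of 2 clones and 1 CRISPR control library. All values are TMM-normalised counts (CPM, scaled to library size), and differences are given as log2(value + 1) ± SE. A difference is called where its adjusted p was under 0.05 in limma and its size at least 1.3-fold, and only a called difference is said to have risen or fallen.

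METTL4 is a methyltransferase of the MT-A70 family, studied here as a writer of N6-methyladenine in DNA. Under low oxygen the prolyl hydroxylases that mark the alpha subunits of hypoxia-inducible factor (HIF) for destruction lose activity, and HIF then induces genes of glycolysis, angiogenesis and mitophagy through short response elements. Interferons act through STAT and IRF factors on a separate response element in the promoters of antiviral genes, and sterol depletion acts through SREBP factors on the genes of cholesterol synthesis.

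METTL4 RNA itself had values of 26.6 and 25.3 in the Scr-si hypoxia libraries of FADU and of 24.2 and 27.1 in those labelled METTL4-si. In BFTC909 it had values of 19.0 and 15.6 with Scr-si and 14.4 and 12.2 with METTL4-si. The FADU groups therefore overlapped, with a difference of -0.02 ± 0.12 (limma, adjusted p = 0.921), while the BFTC909 libraries labelled METTL4-si lay below both controls, with a difference of -0.36 ± 0.12 (limma, adjusted p = 0.0382) that was short of the 1.3-fold required for a call. The interaction of METTL4 was -0.34 ± 0.16 (limma, adjusted p = 0.155). In FADU, METTL4 RNA was thus not seen to be lower under the METTL4-si label, and directions below are those of the libraries so labelled.

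Both lines were checked against their markers. All 14 squamous epithelial markers found in the FADU table were above 1 in every FADU library. Of 14 urothelial markers only 4 were in the BFTC909 table and 2 or 3 of them above 1, whereas 13 of 15 fibroblast markers were there, with VIM, an intermediate filament of mesenchymal cells, at 3230 to 5476. In each line 1 METTL4-si library stood apart from the other. In FADU METTL4-si replicate 1, markers of luminal breast cells summed to 4573 over 16 genes, against 1694 in replicate 2, 2244 and 2262 in the Scr-si hypoxia libraries and 4244 and 3613 in normoxia, and the estrogen-induced TFF1 was at 134.8 against 0 in the other FADU libraries except normoxia replicate 1 (26.2). GATA3 and GREB1, which mark luminal breast cells, were at 216 and 187 in this METTL4-si library, at 41.1 and 36.9 in normoxia replicate 1 and at 0.854 to 3.19 in the other 4 FADU libraries. In BFTC909 METTL4-si replicate 2 such markers summed to 2013 over 8 genes, against 619 in replicate 1 and 1318 and 1356 in the controls. GATA3 and GREB1 were at 127.8 and 120.8 in that library, against 0.844 and 10.6 in replicate 1. In the same library 27 genes chosen as high in FADU and near absent from BFTC909 (at least 20 in both FADU and below 0.5 in both BFTC909 normoxia libraries) summed to 182.6, with 23 of them above 1, which was 9.27% of their FADU hypoxia level, against 12.6 to 17.2 in the other BFTC909 hypoxia libraries. In the FADU hypoxia controls GATA3 and GREB1 were at 0.854 to 3.19. TP63, a squamous marker at 306 and 330 in those controls, was at 0.806 in this BFTC909 library. The keratin genes KRT8 and KRT18 were at 715 and 379 in it and at 5.02 and 24.2 in replicate 1. In the FADU hypoxia controls KRT8 was at 895 and 871 and KRT18 at 484 and 444. The source of these transcripts was not tested. In bulk RNA a few cells of another type and a low level in all cells cannot be told apart. These are the 2 libraries in doubt below, and counts and named genes were also computed without them. Leaving out FADU normoxia replicate 1 as well, an alternative chosen after seeing the data, gave 2911 genes higher and 1798 lower in BFTC909, against 2832 and 1730 without the 2 alone. The 12 libraries held 19038795 to 24864024 reads on genes, and no pair of replicates was as alike as counting error alone would make it. The chi-square for each degree of freedom was 2.11 to 9.34 in the Scr-si groups, 28.9 in METTL4-si FADU and 23.9 in METTL4-si BFTC909.

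The siRNA effect differed between the lines for 3193 genes, 23.5% of those tested. The interaction was higher in BFTC909 for 1953 genes (14.4%) and lower for 1240 genes (9.12%), and it reached 2-fold for 643 of them. The median interaction over all genes was 0.06, and centring each library on its median gave 1419 and 1383 genes, so that the genes higher in BFTC909 made up 50.6% instead of 61.2% of the calls. Within each line, METTL4-si raised 1707 genes (12.6%) and lowered 2338 (17.2%) in FADU, and raised 1758 (12.9%) and lowered 1465 (10.8%) in BFTC909. Of 1385 genes called in both lines, 1166 moved in the same direction and 219 in opposite directions. Across the 13595 genes the effects in both lines, which share no library, had a Pearson r of 0.40 and a Spearman rho of 0.37, and genes are not independent replicates. Leaving out the 2 libraries in doubt leaves a single library in each METTL4-si group. The spread then comes from the Scr-si groups alone, whose replicates varied less (chi-square for each degree of freedom 2.11 to 9.34, against 28.9 and 23.9). The remaining libraries are also in the main fit, so the counts that follow cannot show whether the calls withstand the spread between METTL4-si replicates. Without the 2 libraries in doubt the interaction was called for 4562 genes (33.6%), and 2989 of the 3193 calls (93.6%) were kept with the same sign, 204 were lost and none changed sign.

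The 3193 genes fell into a few kinds. In 114 genes METTL4-si lowered the gene in FADU and raised it in BFTC909, and in 105 it did the opposite. A change in FADU alone, with less than 1.3-fold in BFTC909, was found for 842 genes that fell and 444 that rose. Changes in BFTC909 alone were found for 535 genes that rose and 370 that fell. Another 228 genes were called in the same direction in both lines but by different amounts: 125 fell more in FADU and 33 more in BFTC909, and 46 rose more in BFTC909 and 24 more in FADU. The last 555 genes had a called interaction without meeting these criteria. Protein-coding genes made up 93.1% of the genes higher in BFTC909 and 82.7% of those lower, against 81.5% of all genes tested. Long noncoding RNAs made up 3.02% and 8.31%, against 8.43%.

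Among the genes that fell in FADU and rose in BFTC909, 85 were abundant enough, kept both directions without the 2 libraries in doubt and had no overlap between the hypoxia libraries of either line. Of the 10 whose weaker effect was largest, 9 are described. The leading identifier, ENSG00000117289, had no symbol in the reference tables used here. In FADU its values were 112 and 113 with Scr-si and 38.6 and 26.5 with METTL4-si, and in BFTC909 30.0 and 28.6 with Scr-si and 97.4 and 92.8 with METTL4-si. Its hypoxia groups did not overlap in either line, which was a condition of its choice, and METTL4-si exchanged the order of the lines. The difference was -1.78 ± 0.15 in FADU and 1.66 ± 0.15 in BFTC909, and the interaction of 3.45 ± 0.22 (limma, adjusted p = 1.22e-05) was the largest positive value called. ARRDC4 (chr15:98503933-98517063, plus strand of GRCh37), an alpha-arrestin, had values of 17.1 and 17.1 with Scr-si and 8.57 and 5.47 with METTL4-si in FADU. In BFTC909 its values were 6.55 and 6.07 with Scr-si and 17.4 and 17.0 with METTL4-si. METTL4-si FADU cells thus lay between hypoxic Scr-si and normoxic FADU cells (4.197 and 4.87), and METTL4-si BFTC909 cells lay above every other BFTC909 library. The interaction of ARRDC4 was 2.52 ± 0.23 (limma, adjusted p = 0.000119), from -1.20 ± 0.16 in FADU and 1.32 ± 0.16 in BFTC909.

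ACSS2 (chr20:33459949-33515765, plus strand), which makes acetyl-CoA from acetate, moved in the same way. Its values were 49.2 and 64.4 with Scr-si and 27.1 and 27.6 with METTL4-si in FADU, against 13.2 and 13.5 with Scr-si and 34.0 and 35.4 with METTL4-si in BFTC909. The METTL4-si libraries of both lines differed from their controls by more than any spread between replicates, with an interaction of 2.33 ± 0.16 (limma, adjusted p = 2.28e-05). PAG1, a membrane adaptor that recruits the kinase Csk, had 27.8 and 33.9 with Scr-si and 10.6 and 13.3 with METTL4-si in FADU, and 88.6 and 81.2 with Scr-si and 210.2 and 168 with METTL4-si in BFTC909. It was more abundant in BFTC909 in all conditions, and its interaction was 2.44 ± 0.20 (limma, adjusted p = 6.57e-05). SAMD9, an antiviral restriction factor, was at 385 and 388 with Scr-si and 192 and 274 with METTL4-si in FADU. It was far lower in BFTC909, with 3.13 and 4.06 with Scr-si and 15.5 and 13.4 with METTL4-si, and its interaction was 2.51 ± 0.22 (limma, adjusted p = 8.68e-05).

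Another 4 genes of this kind are given by their differences. Those of the corepressor TLE5 were -0.93 in FADU and 0.81 in BFTC909, and those of the kinase FRK, a relative of Src, were -0.78 and 0.90. TUBA1A, an alpha-tubulin, had -1.03 and 0.79. NECTIN1, a cell adhesion molecule of adherens junctions, had -0.76 and 1.10, but its BFTC909 METTL4-si values of 6.75 and 16.3 differed widely and the higher came from replicate 2, the library in doubt. Without the 2 libraries in doubt its interaction was 1.24 instead of 1.86.

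Among genes that rose in FADU and fell in BFTC909, 82 met the same criteria. ARTN (chr1:44398992-44402912, plus strand), the GDNF-family ligand artemin, had the largest negative interaction of any gene called. In FADU its values were 9.79 and 10.2 with Scr-si and 29.7 and 28.0 with METTL4-si, and in BFTC909 49.5 and 50.7 with Scr-si and 6.61 and 7.60 with METTL4-si. The normoxia libraries were at 32.0 and 31.2 in FADU and 14.9 and 14.4 in BFTC909, so that hypoxia and METTL4-si moved ARTN in opposite directions in each line, and both in opposite directions between the lines. Its differences were 1.44 ± 0.09 in FADU and -2.66 ± 0.09 in BFTC909, with an interaction of -4.10 ± 0.12 (limma, adjusted p = 9.74e-08). PTGES (chr9:132500610-132515321, minus strand), the terminal synthase of prostaglandin E2, had 1.26 and 1.09 with Scr-si and 4.90 and 6.32 with METTL4-si in FADU. In BFTC909 PTGES had 28.3 and 28.8 with Scr-si and 8.21 and 10.98 with METTL4-si. Each METTL4-si group of PTGES was close to the normoxia group of its line (4.78 and 5.32 in FADU, 12.2 and 11.8 in BFTC909), and the interaction was -3.09 ± 0.21 (limma, adjusted p = 1.81e-05). These hypoxia and METTL4-si comparisons share the Scr-si hypoxia libraries.

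NGFR (chr17:47572655-47592370, plus strand), the p75 neurotrophin receptor, went from 6.43 and 7.57 with Scr-si to 19.4 and 21.8 with METTL4-si in FADU. In BFTC909 it went from 8.67 and 9.17 to 1.97 and 2.22, with an interaction of -3.12 ± 0.16 (limma, adjusted p = 5.29e-06). In BFTC909 NGFR was already lower in the hypoxia controls than in normoxia (14.4 and 14.8) and was lower still with METTL4-si, where ARTN and PTGES had been higher in hypoxia than in normoxia. PODXL (chr7:131185021-131242976, minus strand), the sialomucin podocalyxin, had 15.3 and 15.2 with Scr-si and 41.3 and 36.0 with METTL4-si in FADU. It had 566 and 578 with Scr-si and 214 and 186 with METTL4-si in BFTC909, where normoxia was at 1365 and 1370.2. PODXL thus stayed far higher in BFTC909 although the difference between the lines narrowed, and its interaction was -2.80 ± 0.14 (limma, adjusted p = 5.29e-06). The other genes named here by the same criteria are given by their interactions. The heparan sulfate proteoglycans HSPG2 (perlecan) and SDC2 (syndecan-2) had interactions of -2.02 and -1.80, and the metalloproteinase inhibitor TIMP3 had -1.84. LTBP3, which binds latent TGF-beta, had -2.16. LRIG1, a negative regulator of the EGF receptor, had -1.95, and the glycine transporter SLC6A9 had -2.04. Without the 2 libraries in doubt the interactions of HSPG2 and TIMP3 were -1.88 and -1.50.

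Interferon-stimulated genes had the largest median interaction of the 18 gene lists in limma, 1.34, whereas in edgeR and DESeq2 that of the epithelial list was larger, 1.66 against 1.63 and 1.64. Of 25 tested genes of this list, 20 had a higher interaction in BFTC909 and 1 (XAF1) a lower one, against 14.4% and 9.12% of all genes tested. METTL4-si raised 20 of the 25 in BFTC909, with a median difference of 1.53, and 5 in FADU, with a median of 0.16, and it lowered none in either line. The list medians under median-centred libraries, edgeR and DESeq2 were also positive for the interaction, from 1.28 to 1.64. IFI6, a mitochondrial and endoplasmic reticulum protein induced by interferon-alpha, had values of 10.96 and 10.9 with Scr-si and 62.4 and 55.4 with METTL4-si in FADU. It had 1.16 and 1.39 with Scr-si and 92.2 and 120.0 with METTL4-si in BFTC909. It therefore rose in both lines, from a lower control level in BFTC909, with an interaction of 3.23 ± 0.20 (limma, adjusted p = 1.07e-05). OAS2, which makes the 2-5A activator of RNase L, was at 10.1 and 10.99 with Scr-si and 10.9 and 10.7 with METTL4-si in FADU. In BFTC909 it was at 0.241 and 0.0478 with Scr-si and 9.14 and 8.96 with METTL4-si. OAS2 was thus near 0 in BFTC909 controls and came close to its FADU level in the METTL4-si libraries, with an interaction of 3.11 ± 0.17 (limma, adjusted p = 7.36e-06). The dynamin-like antiviral GTPase MX1 had 12.5 and 13.5 with Scr-si and 14.8 and 19.2 with METTL4-si in FADU. It had 1.83 and 1.15 with Scr-si and 17.4 and 15.4 with METTL4-si in BFTC909, and its interaction was 2.47 ± 0.28 (limma, adjusted p = 0.000328). That of OAS1, of the same enzyme family as OAS2, was 2.15.

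Most members had the same shape, with FADU already expressing them in the controls. ISG15, the ubiquitin-like modifier, had 42.5 and 45.3 with Scr-si and 37.01 and 27.4 with METTL4-si in FADU. It had 3.28 and 3.73 with Scr-si and 9.33 and 17.5 with METTL4-si in BFTC909. Its differences were -0.45 in FADU (limma, adjusted p = 0.147) and 1.62 in BFTC909, and its interaction was 2.07 ± 0.33 (limma, adjusted p = 0.00172). OAS3, another 2-5A synthetase, was at 166 and 166 with Scr-si and 154 and 162 with METTL4-si in FADU, and at 15.8 and 18.0 with Scr-si and 49.1 and 55.8 with METTL4-si in BFTC909. OAS3 stayed higher in FADU in every library, with an interaction of 1.65 ± 0.11 (limma, adjusted p = 1.84e-05). The transcription factors above these genes moved less: the interactions of STAT2, IRF1 and IRF9 were 0.46, 0.22 and 0.03, and of these 3 only that of STAT2 was called. The RNA sensors RIGI and IFIH1 had interactions of 1.71 and 1.64. Other interferon-responsive genes named by the criteria for single genes were BST2 (tetherin), IFI27, C1R and C3, the last 2 complement components. C3 had 12.9 and 16.5 with Scr-si and 24.4 and 28.7 with METTL4-si in FADU, and 4.14 and 4.68 with Scr-si and 78.0 and 84.4 with METTL4-si in BFTC909. C3 rose in both lines, with an interaction of 3.10 ± 0.19 (limma, adjusted p = 1.07e-05), and those of BST2, IFI27 and C1R were 2.38, 2.09 and 2.38. Without the 2 libraries in doubt 20 of the 25 genes of the list were still called higher in BFTC909, with a median interaction of 1.18.

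The core of the interferon-stimulated response element, through which interferon acts, was searched in the promoters of these genes. It was read as GAAANNGAA on both strands of the 300 bases around a RefSeq start site (GRCh38.p14, 250 bases before to 50 after it). Of the 20 listed genes with a RefSeq promoter, 13 held it. The share was 8.66% of the 9624 tested genes matched by symbol and 9.86% of all symbols with a promoter. These counts take a gene with the core in any of its promoters, and 8.11% of all 35116 single promoters held it. Overlapping matches occur and are joined in capitals. Shown for their called interactions are stretches of IFI6 (chr1:27672263-27672362, minus strand), ISG15 (chr1:1013367-1013416, plus strand) and OAS3 (chr12:112938314-112938473, plus strand), with the core in capitals.
IFI6: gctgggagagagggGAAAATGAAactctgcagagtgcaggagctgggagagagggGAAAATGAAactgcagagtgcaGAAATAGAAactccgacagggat
ISG15: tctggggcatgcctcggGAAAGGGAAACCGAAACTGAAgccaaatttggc
OAS3: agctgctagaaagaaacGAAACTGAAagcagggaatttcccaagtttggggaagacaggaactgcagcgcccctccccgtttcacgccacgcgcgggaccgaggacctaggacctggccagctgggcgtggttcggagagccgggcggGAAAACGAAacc
IFI6 and ISG15 hold 3 matches each in these stretches and OAS3 holds 2. Of the 31 matched genes that rose in both lines and more in BFTC909, 10 held the core (32.3%), as did 61 of 426 (14.3%) that rose in BFTC909 alone 21 of 296 (7.09%) that rose in FADU alone and 13 of 89 (14.6%) that fell in FADU and rose in BFTC909. In the other kinds the share ran from none of 15 to 23 of 262 (8.78%).

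Genes of the hypoxia response fell in both lines, and more in FADU. Of 30 genes tested, METTL4-si lowered 28 in FADU and 29 in BFTC909, with median differences of -1.75 and -1.20. The interaction was called for 16 (53.3%, against 23.5% of all genes tested), higher in BFTC909 for 15 and lower for 1 (VEGFA). The counts were 11 higher and 2 lower with median-centred libraries, 13 and 2 in edgeR and 15 and 3 in DESeq2. The median interaction was 0.49, and 0.51 without the 2 libraries in doubt. In FADU and BFTC909, in that order, hypoxia alone had raised the Scr-si medians by 1.90 and 1.76. The METTL4-si medians lay 0.17 and 0.48 above normoxia. These comparisons share libraries. NDRG1, a stress-responsive gene strongly induced by HIF, had values of 2649.7 and 3135 with Scr-si and 152 and 171 with METTL4-si in FADU, where normoxia was at 144 and 146. In BFTC909 it had 535 and 569 with Scr-si and 242 and 211 with METTL4-si, and 118 and 124 in normoxia. METTL4-si thus brought NDRG1 to near the normoxia level in FADU, whereas in BFTC909 it stayed above it. Its interaction was 2.87 ± 0.14 (limma, adjusted p = 4.32e-06), from -4.15 ± 0.10 in FADU and -1.29 ± 0.10 in BFTC909. EGLN3, an oxygen-sensing prolyl hydroxylase that acts on HIF, had 274 and 311 with Scr-si and 17.2 and 17.6 with METTL4-si in FADU. It had 7.47 and 6.88 with Scr-si and 2.11 and 3.73 with METTL4-si in BFTC909. The level in hypoxic BFTC909 controls was already low, and the interaction was 2.90 ± 0.24 (limma, adjusted p = 6.92e-05). BNIP3, a mitophagy receptor of the outer mitochondrial membrane, had 188 and 175 with Scr-si and 13.2 and 11.7 with METTL4-si in FADU. It had 353 and 346 with Scr-si and 119.6 and 85.1 with METTL4-si in BFTC909, and its interaction was 1.98 ± 0.18 (limma, adjusted p = 0.000121).

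SLC2A3, the glucose transporter GLUT3, was one of the members that reversed. In FADU its values were 44.5 and 47.8 with Scr-si and 8.53 and 10.5 with METTL4-si. They were 55.7 and 57.8 with Scr-si and 90.4 and 76.02 with METTL4-si in BFTC909. SLC2A3 fell to near its normoxia level (8.10 and 9.16) in FADU and rose above every other library in BFTC909, with an interaction of 2.71 ± 0.19 (limma, adjusted p = 2.34e-05). VEGFA, the angiogenic growth factor, reversed the other way, with 176 and 189 with Scr-si and 235 and 267 with METTL4-si in FADU. In BFTC909 it had 439.6 and 432 with Scr-si and 267 and 231 with METTL4-si, and the interaction was -1.26 ± 0.14 (limma, adjusted p = 0.000328). Members with large falls of like size also occurred: CA9, a carbonic anhydrase, had differences of -3.53 in FADU and -3.07 in BFTC909, and ANGPTL4 had -2.45 and -2.65, and neither interaction was called. TCAF2, a regulator of TRPM8 channels that is in none of the lists, also fell in both lines and more in FADU, from 34.3 and 37.6 with Scr-si to 2.19 and 1.87 with METTL4-si in FADU and from 12.1 and 14.6 to 3.42 and 2.62 in BFTC909.

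In glycolysis 16 of 20 tested genes (80%) had a higher interaction in BFTC909 and none a lower one, against 23.5% of all genes tested called. METTL4-si lowered 19 of them in FADU and 17 in BFTC909, with medians of -1.70 and -0.89. The median interaction was 0.70 and stayed between 0.63 and 0.65 under median-centred libraries, edgeR and DESeq2. PGK1, phosphoglycerate kinase, had 949.9 and 1038 with Scr-si and 217 and 185 with METTL4-si in FADU, and 1784 and 1814 with Scr-si and 846 and 711 with METTL4-si in BFTC909. Its interaction was 1.09 ± 0.13 (limma, adjusted p = 0.000548). LDHA, which reduces pyruvate to lactate, had 2315 and 2401 with Scr-si and 444 and 470.3 with METTL4-si in FADU, and 3596 and 3657 with Scr-si and 1647 and 1312 with METTL4-si in BFTC909. In both genes the METTL4-si libraries lay below every control library of their line in hypoxia. The interaction of LDHA was 1.06 ± 0.14 (limma, adjusted p = 0.000627), and that of PFKFB4, which sets the level of an allosteric activator of glycolysis, was 1.68. The value for ALDOC, 2.37, rests on BFTC909 values of 1.01 and 1.19 with Scr-si and 0.422 and 2.06 with METTL4-si, which are near the minimum of 1. PFKM, the muscle isoform of phosphofructokinase, was not called in either line (0.30 and -0.03).

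HIF binds the core ACGTG, which was searched on both strands of the same promoters. It was found in 17 of 24 hypoxia response genes and in 13 of 20 glycolysis genes with a RefSeq promoter. The share was 33.1% of the tested genes matched and 24.9% of all symbols with a promoter. These counts take a gene with the core in any of its promoters, and 21.4% of single promoters held it. Shown in capitals for their different falls in FADU and BFTC909 are the matches upstream of BNIP3 (chr10:131982024-131982083, minus strand, GRCh38.p14), where a palindrome gives 2 overlapping matches, and of PGK1 (chrX:78104028-78104087, plus strand).
BNIP3: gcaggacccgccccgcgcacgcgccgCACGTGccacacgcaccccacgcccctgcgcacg
PGK1: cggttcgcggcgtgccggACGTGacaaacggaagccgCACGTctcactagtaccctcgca
Among genes that fell in both lines and more in FADU, 47 of 99 (47.5%) held the core, and 9 of 25 (36.0%) of those that fell more in BFTC909 did. The share was 8 of 15 (53.3%) for genes that rose in both lines and more in FADU, 6 of 31 (19.4%) for those that rose more in BFTC909, and 201 of 672 (29.9%) for those that fell in FADU alone.

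**Figure D1:**
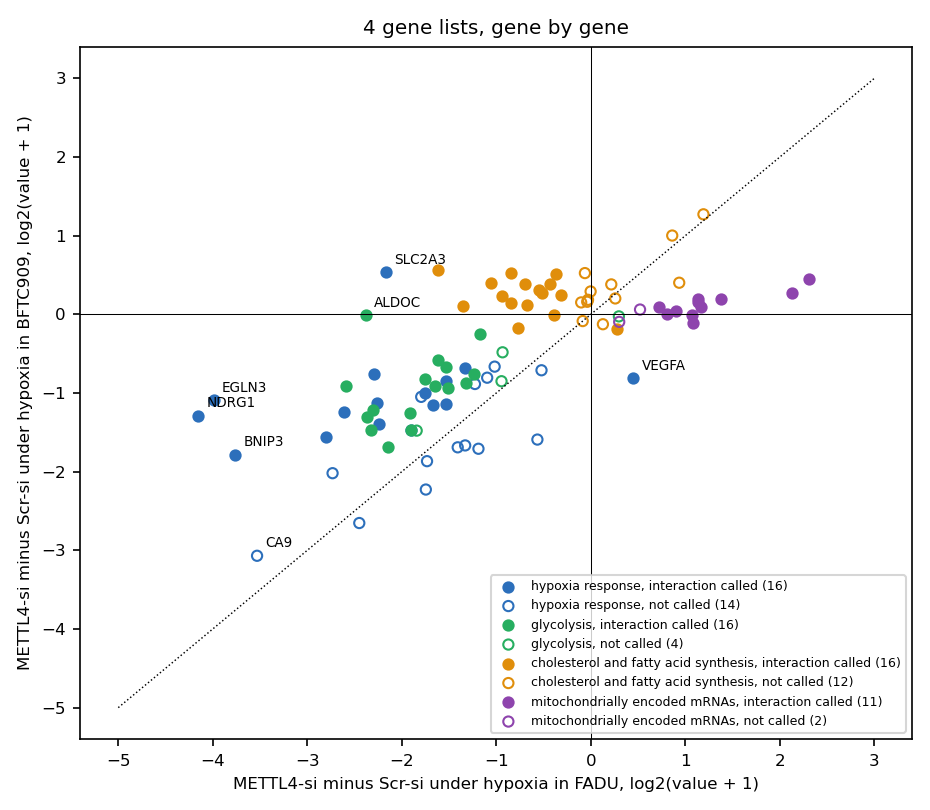
Each point is a member of 1 of 4 gene lists, with its METTL4-si minus Scr-si difference under hypoxia in FADU on the x axis and in BFTC909 on the y axis, both as log2(value + 1), and the dotted line marks equal effects. Most glycolysis genes lie above the line in the lower left, 15 of 28 genes of cholesterol and fatty acid synthesis are called above it, and the mitochondrial mRNAs lie below it, to the right of 0 in FADU and near 0 in BFTC909.

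Many genes of cholesterol and fatty acid synthesis fell in FADU, and none fell in BFTC909. Of 28 tested, 15 had a higher and 1 (FADS1) a lower interaction in BFTC909 (57.1% called, against 23.5% of all genes tested). METTL4-si lowered 13 and raised 2 in FADU, with a median of -0.34, and raised 6 and lowered none in BFTC909, with a median of 0.26. HMGCS1, which makes HMG-CoA, had 437 and 509 with Scr-si and 145 and 161 with METTL4-si in FADU. It had 139 and 137 with Scr-si and 220.3 and 191 with METTL4-si in BFTC909. The groups were apart in both lines, in opposite directions, with an interaction of 2.19 ± 0.14 (limma, adjusted p = 1.14e-05). INSIG1, which holds SREBP in the endoplasmic reticulum, had 298 and 367 with Scr-si and 155 and 161 with METTL4-si in FADU. In BFTC909 it had 244 and 242 with Scr-si and 344 and 299 with METTL4-si, and its interaction was 1.46 ± 0.15 (limma, adjusted p = 0.000183). The next largest were IDI1 (1.46) and MVD (1.38), both of the mevalonate pathway. The genes of the factors themselves, SREBF1 and SREBF2, had interactions of -0.53 and -0.06, neither of them called. ABCA1, which exports cholesterol and is in none of the lists, rose in both lines and more in FADU. Its values went from 9.79 and 8.67 with Scr-si to 44.9 and 47.9 with METTL4-si in FADU and from 81.5 and 80.7 to 156 and 137 in BFTC909, with an interaction of -1.37 ± 0.20 (limma, adjusted p = 0.00108).

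The mRNAs of the mitochondrial genome rose in FADU. METTL4-si raised 12 of 13 in FADU, none was called in BFTC909, and the medians were 1.08 and 0.09. The interaction was called lower in BFTC909 for 11 (84.6%, against 23.5% of all genes tested called). Hypoxia alone had changed their Scr-si medians by -0.93 in FADU and -0.01 in BFTC909. MT-ND6, a subunit of complex I, had 118 and 102 with Scr-si and 513 and 453 with METTL4-si in FADU, where normoxia was at 831 and 728. It had 189 and 159 with Scr-si and 189 and 231 with METTL4-si in BFTC909. The FADU groups were far apart and the BFTC909 groups overlapped, with an interaction of -1.86 ± 0.18 (limma, adjusted p = 0.000133). MT-ND6 is the mRNA of the light strand, and the sources used here do not say whether reads were counted by strand. MT-ATP6, a subunit of ATP synthase, had 1872 and 1893 with Scr-si and 4809.5 and 4999 with METTL4-si in FADU, and 2628 and 2261 with Scr-si and 2527 and 3094 with METTL4-si in BFTC909. Its interaction was -1.18 ± 0.17 (limma, adjusted p = 0.00108), and those of MT-ATP8 and MT-CO3 were -1.85 and -1.18. Genes of the respiratory chain encoded in the nucleus had 1 called interaction among 32 tested (3.1%), that of UQCRB (0.47). Their medians were -0.22 in FADU and -0.19 in BFTC909. Of these 32, 7 were called higher and 1 lower in BFTC909 without the 2 libraries in doubt. The mitochondrial genome gave a share of the summed values of 3.79% and 3.66% in the Scr-si hypoxia libraries of FADU and 6.47% and 7.11% in its METTL4-si libraries, against 4.24% and 3.85% and then 4.04% and 4.64% in BFTC909.

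Cytosolic ribosomal protein mRNAs fell in FADU, and fewer fell in BFTC909. METTL4-si lowered 29 of 32 in FADU and 9 in BFTC909, with medians of -0.72 and -0.32. The interaction was higher in BFTC909 for 13 (40.6%, against 23.5% of all genes tested called) and lower for none. Its median of 0.41 was between 0.34 and 0.35 under median-centred libraries, edgeR and DESeq2. The count was 27 without the 2 libraries in doubt, with a median of 0.53, and 8 in edgeR. RPS12 had 415 and 442 with Scr-si and 175 and 159 with METTL4-si in FADU, and 298 and 337 with Scr-si and 221 and 218 with METTL4-si in BFTC909. Its interaction was 0.83 ± 0.12 (limma, adjusted p = 0.00108). Ribosomal protein genes have many processed pseudogenes, and how reads shared with them were counted is not given in the sources used here. These genes were at a median of -0.04 in FADU and -0.31 in BFTC909 for hypoxia against normoxia in Scr-si cells.

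Among genes that moved in FADU alone, MT2A (chr16:56642496-56643409, plus strand), a metallothionein that binds zinc and copper, had the largest interaction among those that fell and met the criteria. It had 172 and 152 with Scr-si and 59.98 and 43.5 with METTL4-si in FADU, against 66.9 and 71.5 with Scr-si and 71.0 and 94.9 with METTL4-si in BFTC909. Both FADU METTL4-si values lay below all other FADU values, normoxia included (111 and 91.9), and the interaction was 1.89 ± 0.23 (limma, adjusted p = 0.000547). FABP5, a fatty acid binding protein, had 118 and 114 with Scr-si and 31.7 and 36.3 with METTL4-si in FADU, and 46.0 and 47.7 with Scr-si and 49.8 and 41.7 with METTL4-si in BFTC909. The phosphatase gene PTPRB and RFLNB, which binds filamin, had interactions of 1.77 and 1.77, and that of FABP5 was 1.71. The BFTC909 difference of RFLNB was 0.36, just short of 1.3-fold, and was 0.48 without the 2 libraries in doubt. In the other direction LIF (chr22:30636442-30642748, minus strand), a cytokine of the interleukin-6 family, had 5.39 and 5.43 with Scr-si and 21.7 and 23.7 with METTL4-si in FADU. It had 40.8 and 38.8 with Scr-si and 38.6 and 40.2 with METTL4-si in BFTC909. LIF rose in FADU and differed by no more than its replicates did in BFTC909, with an interaction of -1.90 ± 0.11 (limma, adjusted p = 9.44e-06). DOCK11, an exchange factor for the GTPase CDC42, had an interaction of -1.90. MIR3648 had the largest value of this kind, -2.38 ± 0.69 (limma, adjusted p = 0.0307), but its FADU METTL4-si values of 4097 and 1688 differed widely. Its sequence has near-identical copies in ribosomal DNA, so that its reads cannot be assigned with certainty, and its call was lost in 6 of 8 fits that left out 1 hypoxia library.

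Among genes that rose in BFTC909 alone, LAMA5 (chr20:60883011-60942368, minus strand), a laminin alpha chain, had the largest interaction of those that met the criteria. It had 454 and 502 with Scr-si and 577 and 466 with METTL4-si in FADU, and 2.07 and 2.20 with Scr-si and 14.5 and 69.6 with METTL4-si in BFTC909. The higher BFTC909 value is from replicate 2, the library in doubt. The other METTL4-si library was above both controls too. The interaction was 3.28 ± 0.71 with all libraries (limma, adjusted p = 0.0085) and 2.35 without the 2 libraries in doubt. Of the genes that fell in BFTC909 alone, CAMKK1, a kinase that activates CaM kinases, had 4.58 and 3.79 with Scr-si and 5.14 and 4.94 with METTL4-si in FADU. It had 26.6 and 28.7 with Scr-si and 5.39 and 5.39 with METTL4-si in BFTC909, where normoxia was at 4.25 and 4.61. CAMKK1 was thus far higher in the BFTC909 hypoxia controls than in all other libraries of either line, and close to normoxia with METTL4-si, with an interaction of -2.39 ± 0.16 (limma, adjusted p = 1.52e-05). HEXIM1, an inhibitor of the elongation factor P-TEFb, had 82.2 and 81.6 with Scr-si and 79.9 and 78.9 with METTL4-si in FADU. It had 159 and 145 with Scr-si and 48.4 and 44.8 with METTL4-si in BFTC909. With METTL4-si HEXIM1 lay below all other BFTC909 libraries, normoxia included (165 and 163), with an interaction of -1.64 ± 0.09 (limma, adjusted p = 6.51e-06). The cation channel TRPM2 and the heme transporter SLC48A1 had interactions of -1.93 and -1.74.

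Genes called in the same direction in both lines could still differ in size. F3 (chr1:94994729-95007315, minus strand), tissue factor, fell more in BFTC909, from 274 and 271 with Scr-si to 31.6 and 26.8 with METTL4-si, than in FADU, from 2527 and 2510.4 to 1469 and 1853. Its interaction was -2.57 ± 0.15 (limma, adjusted p = 8.85e-06). IGFBP3, which binds insulin-like growth factors, fell from 328 and 329 with Scr-si to 21.3 and 19.8 with METTL4-si in BFTC909 and from 246 and 308 to 44.2 and 52.7 in FADU. Both lines came close to normoxia (39.4 and 42.5 in FADU, 14.3 and 21.5 in BFTC909), and the interaction was -1.45 ± 0.24 (limma, adjusted p = 0.00203). PRKAG2, a subunit of AMP-activated kinase, and the adaptor DOK3 had interactions of -1.54 and -1.72. Besides ABCA1, the genes that rose more in FADU included PRTG (-1.20), the exporter SLC47A1 (-1.02) and THBD, the endothelial anticoagulant thrombomodulin (-0.93).

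Genes of TGF-beta signalling had lower interactions in BFTC909 more often than higher ones, 11 against 4 of 22 tested. The share called was 68.2%, against 23.5% of all genes tested. The medians were 0.18 in FADU and -0.33 in BFTC909. The lower ones included feedback inhibitors and targets: SMAD7 (-1.28), PMEPA1 (-1.41), SMAD6 (-3.36) and the inhibitors of differentiation ID1 (-0.86), ID2 (-3.77) and ID3 (-2.39). ID3 had 2.74 and 3.51 with Scr-si and 10.2 and 1.91 with METTL4-si in FADU, and 63.6 and 63.3 with Scr-si and 14.1 and 18.2 with METTL4-si in BFTC909. Both METTL4-si libraries of BFTC909 lay below its controls. In FADU no difference was called (0.48, limma, adjusted p = 0.457), and only replicate 1, the library in doubt, lay above the controls. ID2 had 9.05 and 0.133 and SMAD6 4.83 and 0.667 in the FADU METTL4-si libraries, with the same replicate higher. Without the 2 libraries in doubt the interactions of ID2, SMAD6 and ID3 were -2.42, -2.79 and -1.60. The calls of ID2 and ID3 were each lost in 7 alternatives, among them leaving out any Scr-si hypoxia library.

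Mesenchymal and matrix genes were divided, with 8 higher and 6 lower in BFTC909 among 23 tested (60.9%, against 23.5% of all genes tested). Their medians were -0.05 in FADU and -0.31 in BFTC909. The transcription factors of epithelial-mesenchymal transition SNAI1 and SNAI2 had interactions of opposite sign. SNAI1 had 0.539 and 0.410 with Scr-si and 1.52 and 1.74 with METTL4-si in FADU, and 16.0 and 17.6 with Scr-si and 3.42 and 4.18 with METTL4-si in BFTC909. SNAI1 was near the minimum of 1 in FADU and fell in BFTC909, with an interaction of -2.73 ± 0.23 (limma, adjusted p = 6.6e-05). SNAI2 had 53.8 and 55.4 with Scr-si and 19.9 and 22.6 with METTL4-si in FADU, and 81.5 and 75.7 with Scr-si and 83.4 and 74.3 with METTL4-si in BFTC909. SNAI2 fell in FADU and its BFTC909 groups overlapped, with an interaction of 1.33 ± 0.13 (limma, adjusted p = 0.000183). ITGA5, the fibronectin receptor subunit, had 1.19, and TWIST1 and ZEB1 had -0.12 and 0.36, neither called. In the epithelial list 2 of 12 genes (16.7%, below the 23.5% of all genes tested) were called, CLDN1 and DSG2, both higher in BFTC909. That of DSG2 was lost with median-centred libraries (0.56 with all libraries as deposited). The tight junction gene CLDN1 had 72.8 and 95.0 with Scr-si and 67.8 and 84.7 with METTL4-si in FADU. It had 29.7 and 30.0 with Scr-si and 151 and 127 with METTL4-si in BFTC909, where normoxia was at 117 and 118, and its interaction was 2.31 ± 0.19 (limma, adjusted p = 6.38e-05). The keratin gene KRT8, in contrast, had BFTC909 METTL4-si values of 5.02 and 715, so that its interaction of 3.73 rested on a single library and was not called. Without the 2 libraries in doubt the list had 7 genes higher and 3 lower, and its median interaction went from 0.84 to 0.39.

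Genes of the unfolded protein and integrated stress response had 9 lower and 1 higher interaction in BFTC909 among 28 tested. The share called was 35.7%, against 23.5% of all genes tested, and the medians were 0.04 in FADU and -0.32 in BFTC909. HSPA5, the endoplasmic reticulum chaperone BiP, had 549 and 568 with Scr-si and 624 and 706 with METTL4-si in FADU. It had 713 and 753 with Scr-si and 400.1 and 366 with METTL4-si in BFTC909. The difference was 0.25 in FADU, short of 1.3-fold, and HSPA5 fell in BFTC909, with an interaction of -1.18 ± 0.12 (limma, adjusted p = 0.00018). The chaperones CALR and HSP90B1 had interactions of -1.10 and -0.96. XBP1 had -1.66, and its FADU METTL4-si values of 228 and 86.6 were apart, XBP1 being also a marker of luminal breast cells, and the interaction was -1.29 without the 2 libraries in doubt. Its call was lost on leaving out any Scr-si hypoxia library. Mitosis and spindle genes had 12 lower and no higher interaction among 30 (40%, against 23.5% of all genes tested). Their medians were -0.15 in FADU and -0.46 in BFTC909. CENPF, a kinetochore protein, had 495 and 463 with Scr-si and 482 and 597 with METTL4-si in FADU, and 1089.9 and 1106 with Scr-si and 742 and 626 with METTL4-si in BFTC909. It was lowered in BFTC909 and not called in FADU, with an interaction of -0.85 ± 0.15 (limma, adjusted p = 0.00331). The motor CENPE, ASPM and KIF2C had -0.67, -0.66 and -0.60. DNA replication genes had 4 higher and 2 lower interactions among 30 (20%, against 23.5% of all genes tested), led by thymidylate synthase TYMS (-0.69) and GINS2 (0.62).

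The remaining lists were mixed or small. The share of genes called was 30.4% for the immediate early list and 29.2% for autophagy and lysosome, near the 23.5% of all genes tested. It was 52.2% for NRF2 antioxidant and 50% for inflammatory genes. NRF2 antioxidant genes had 9 higher and 3 lower interactions among 23, led by the ferritin heavy chain FTH1 (1.14) and AKR1C1 (1.13) and, in the other direction, by the heme oxygenase HMOX1 (-0.89). Autophagy and lysosome genes had 6 higher and 1 lower among 24 (9 and 3 without the 2 libraries in doubt), the latter being ATG9A (-1.36), which reversed between the lines (0.81 in FADU and -0.55 in BFTC909). Immediate early genes of the AP-1, EGR and MYC list had 6 higher and 1 lower among 23, with DUSP6 at 1.03 and DUSP1 at -0.93. Inflammatory genes had 2 higher and 5 lower among 14, among them NFKBIA (-0.92) and TNFAIP3 (-0.77), which restrain NF-kB. Under median-centred libraries none of these 14 was higher and 4 were lower. The p53 targets had 3 higher and 1 lower among 22 (18.2%, against 23.5% of all genes tested), or 8 and 3 without the 2 libraries in doubt, and FDXR had the largest called interaction, 0.88.

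In FADU the same genes could be read in cells with more METTL4. METTL4-OE raised METTL4 itself by 2.09 on the log2 scale and raised 1036 genes (7.85%) and lowered 1141 (8.64%) of the 13199 tested in that table. Among genes that fell in both lines and more in FADU, 77 of 123 (62.6%) rose with METTL4-OE and none fell. Among those that rose in both lines and more in BFTC909, 26 of 43 (60.5%) fell and 2 rose. Genes that moved in a single line gave smaller shares: of 837 that fell in FADU alone 129 (15.4%) rose with METTL4-OE, and of 522 that rose in BFTC909 alone 134 (25.7%) fell. Of the reversed genes, those that fell in FADU gave 29 rising and 23 falling of 112, and those that rose in FADU gave 5 rising and 21 falling of 102. The hypoxia response and glycolysis lists rose with METTL4-OE in FADU (24 of 30 and 15 of 20 called, none lower). Interferon-stimulated genes fell, 19 of 25 called and none higher, with a median of -0.57. Cholesterol and fatty acid synthesis genes fell too, 27 of 28, with a median of -0.94, where METTL4-si under hypoxia had lowered 13 and raised 2.

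The METTL4-DPPW-mut clones had 1 control library, and their differences have no replicate check. Interferon-stimulated genes had median differences of -0.49 and -0.77 in the 2 clones, and cholesterol and fatty acid synthesis genes -1.47 and -0.97. The hypoxia response genes, which fell by a median of 1.75 with METTL4-si in FADU, were at -0.09 and -0.10. Of the reversed genes, ACSS2 had -2.46 and -2.83 in the clones and -1.61 with METTL4-OE, and FRK had -0.86 and -0.80 in the clones and -1.13 with METTL4-OE. Of the other described genes that fell in FADU with METTL4-si, METTL4-OE raised ENSG00000117289 (2.26), ARRDC4 (1.95) and PAG1 (0.86). SAMD9 (-0.34, the same sign as with METTL4-si), TLE5 (0.28), TUBA1A (0.04) and NECTIN1 (0.05) were not called with METTL4-OE. PODXL had 0.83 and 0.56 in the clones and -0.84 with METTL4-OE, where its METTL4-si difference in FADU was 1.28.

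The 204 calls lost without the 2 libraries in doubt were led, by size of the interaction, by genes of low level in at least 1 line. The largest was PADI1, a deiminase of epidermal proteins, at -1.10 with all libraries and -0.79 without the 2. CAMK1D, AKR1E2, SH3BP1 and RAG1 followed, with -1.01, -0.997, 0.93 and 0.87. Each of these 5 had a group mean under 3 in at least 1 line.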

How the data were processed

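The authors trimmed reads with Trim Galore, aligned them with HISAT2, counted them per gene with HTSeq and scaled the counts by TMM in edgeR, and deposited TMM-normalised CPM, a signal that is not whole. Versions are not given in the sources used here. All values proved to be whole multiples of 1 read (100% within 0.05 read), so reads were recovered for the edgeR and DESeq2 alternatives. The interaction was fitted to log2(value + 1) with limma with trend over the 12 knockdown libraries, as 6 groups of 2, with Benjamini-Hochberg adjustment over all 13595 genes. An interaction, or an effect in a line, was called at an adjusted p under 0.05 and at least 1.3-fold. The METTL4-OE fit used 4 libraries, since 2 columns of values were not used, and the mutant clones were not tested. Fold changes on this scale understate those of low genes. The members and all lists were chosen with earlier results of these data known.

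Single genes were named by rule from those with a called interaction, by rank within each kind. Reversed genes (10 per direction) and genes of the other kinds (4 per kind) also needed a mean value of at least 5 in a hypoxia group of each line. They further needed the same sign and adjusted p under 0.05 without the 2 libraries in doubt. These further criteria were not applied to the called members of each list (4 per list) or to the 5 largest lost calls. Some genes that met the rule are not reported here. Other list members and marker genes given in the text were chosen after their values were seen. Genes of both tables were matched to GENCODE v44 lifted to GRCh37 (15468 of 15926), and promoters to RefSeq on GRCh38.p14 by symbol (9624 of 13595). In simulated data the interaction fit found 73% of 2-fold and 98% of 4-fold changes, with 13 unchanged genes called among 13595. The simulation gave all groups the same spread and placed changes only in genes above a minimum level. In the data the METTL4-si replicates varied more, with a chi-square for each degree of freedom of 28.9 in FADU and 23.9 in BFTC909. That of the Scr-si groups was 2.11 to 9.34. These simulated shares therefore do not carry over to the data. Used were R 4.3.3, limma 3.58.1, edgeR 4.0.16, DESeq2 1.42.0, Python 3.11.15, numpy 2.4.6, pandas 2.3.3, scipy 1.17.1 and matplotlib 3.10.9.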

Additional observations from a re-analysis of the deposited data

Results flagged for a closer look

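The effect of METTL4-si under hypoxia differed between the lines by the interaction test itself for 1953 genes that were higher and 1240 that were lower in BFTC909, of 13595 tested (limma). Of these, 114 fell in FADU and rose in BFTC909, 105 did the opposite, and 2191 moved in a single line. The genes named by rule in the report met the same test, METTL4 excepted. Groups of 2 libraries were too small for a search for single outlying values.

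In BFTC909 METTL4-si replicate 2 the summed value of 27 genes chosen as high in FADU and near absent from BFTC909 was 182.6, against 4.97 to 17.2 in the other 5 BFTC909 libraries. These genes enter no comparison as a group, and their part in the results was not tested. Without this library and FADU METTL4-si replicate 1, none of the 3193 called interactions changed sign. Each METTL4-si group then holds a single library, which is also in the main fit, so this is not an independent check.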

How the results depend on the processing

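Counts are given in the order higher and lower in BFTC909, reversed downward and upward in FADU, and moved in a single line (1953, 1240, 114, 105 and 2191 genes). A 2-fold threshold left 388, 255, 4, 4 and 235 genes, with 536 genes called in FADU and 543 in BFTC909 instead of 4045 and 3223. A pseudocount of 5 left 67 and 63 reversed genes, and the 8 hypoxia libraries alone left 797 genes lower in BFTC909. Leaving out 1 hypoxia library at a time gave 1221 to 2327 genes higher, 768 to 1437 lower, 72 to 140 and 74 to 146 reversed and 1347 to 2501 in a single line, and 3105 to 4340 genes called in FADU and 2359 to 3934 in BFTC909. The fewest came without Scr-si hypoxia replicate 2 of FADU (1221, 769, 72 and, in a single line, 1347) or of BFTC909 (1293, 768 and, in a single line, 1419), and without BFTC909 Scr-si hypoxia replicate 1 the lower genes numbered 820. The cause of these shifts was not tested, except that a higher threshold passes fewer genes. Where a METTL4-si group was left with 1 library, that library was taken to vary like the other groups. Same-numbered replicates were not taken as paired, since their deviations correlated at -0.08 to 0.17 in all pairs of groups but FADU normoxia and METTL4-si (0.55), and a replicate block gave 2000, 1257, 120, 120 and 2225 genes. The higher genes were 61.2% of the calls, but 50.6% with median-centred libraries, 53.1% in edgeR (1668 and 1473 genes) and 54.1% in DESeq2 (1524 and 1291 genes). The 116 genes named by rule, METTL4 excepted, were chosen for a call with all libraries. Many were also chosen for keeping it without the 2 libraries in doubt, so the counts of kept values that follow are partly fixed by the choice. Over the 116 genes named by rule and their alternatives, 2282 values stayed on the same side of the threshold with the same sign and 132 lost the call, 84 of them with 1 library left out, and none reversed. The losses were those of TAGLN and BIRC3 (12 each), RRM2B (10), SH3BP1, CAMK1D, AKR1E2 and AKR1C3 (9 each), RAG1 (8), PADI1, ID2 and ID3 (7 each), MIR3648, XBP1 and DSG2 (6 each), RPS2 (5), GINS2 and AEN (3 each), MVD (2), and EGR2 and DUSP6 (1 each). Leaving out the 2 libraries in doubt and FADU normoxia replicate 1, chosen after seeing the data, gave 178 genes reversed downward in FADU, against 167 without the 2 alone. With 2 libraries per group, small differences of low genes were not detectable at this depth.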

Other observations

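Chromosome 14 had the largest share of called interactions of any nuclear chromosome: 139 of 434 genes (32.0%), 115 higher and 24 lower in BFTC909, with a median interaction of 0.24, against 15.9% to 29.5% for the other nuclear chromosomes and 23.5% for all genes tested. The median effects of its genes were -0.13 in FADU and 0.05 in BFTC909. No test was made of this share, since neighbouring genes are not independent replicates.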
